A study of Mus musculus with 2 samples.

Results

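Macrophage-rich dermal spots are the positions on the Visium slides where macrophage transcripts outnumbered those of the collagen matrix. A spot is a small barcoded area under the tissue that can hold several cells of different types. Spots were taken if they had at least 200 unique molecular identifiers (UMIs, counted transcripts), at least 3 UMIs summed over *Trem2*, *Mpeg1*, *Ctss*, *Ctsk*, *Ctsz* and *Atp6v0d2*, more of these than of *Col1a1*, *Col1a2*, *Col3a1*, *Col5a2* and *Col6a3*, and less than 3% of UMIs from *Krt5*, *Krt14* and *Lor*. Of 3175 spots over tissue, 2174 reached 200 UMIs and 56 met the whole rule. The counts of these 14 genes chose the spots, so their levels are a description and support nothing.

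The skin came from female SKH-1 mice, a hairless strain, aged 10 to 12 weeks. The control section was normal skin. The UVR section was skin exposed to ultraviolet radiation (UVR), the retinol section was UVR-exposed skin treated with 0.1% retinol, and the HPR section was irradiated skin that received 0.03% of the retinoid 9-cis HPR. The control and UVR sections shared 1 capture area and both treated sections another. Each group had 1 section and the labels do not say how the animals were allotted, so groups are compared without a test, and intervals cover counting error only. Sections were assigned by their upper or lower place in the image. The spot grid runs the other way, and reading it instead would exchange the groups of each area and turn every direction within it. The capture areas share their spot barcodes, which mark grid positions, and 430 barcodes lay over tissue in both.

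Macrophages of the dermis take up dying cells and lipid, break them down in lysosomes and store the iron they recover. Lysosomes are acidified by the vacuolar proton pump and hold cathepsins, the proteases of the compartment. TREM2 is a lipid-sensing receptor that signals through the adaptor TYROBP, MPEG1 is a pore-forming protein of the phagosome, and ATP6V0D2 is a pump subunit of macrophages and osteoclasts. Fibroblasts of the same layer make the fibrillar collagens, and keratinocytes of the epidermis make the keratins and loricrin that bound the rule from the other side.

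The members held few transcripts, which limits every value that follows. The control section had 12 members with 6478 UMIs, the UVR section 16 with 8904, the retinol section 15 with 6088 and the HPR section 13 with 7917. The median member had 520.5, 446, 392 and 562 UMIs, in that order, and the range over all members was 204 to 1445. Members carried 1.99% of the UMIs of all kept spots in the control section, against 0.348%, 0.430% and 0.633% in the UVR, retinol and HPR sections. A gene with no UMI in the members could have reached 463, 337, 493 and 379 CPM (UMIs of a gene scaled by the total UMIs of the class in a section), the level of 3 counts. The comparison class was 378 collagen-rich spots, with at least 200 UMIs, the same keratin limit, and at least 3 collagen UMIs that were not outnumbered by the 6 macrophage genes.

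Many members were near the limits of the rule. The summed macrophage genes had a median of 6 UMIs per member in the control section, 4 in the UVR section, 5 in the retinol section and 6 in the HPR section, and a maximum of 17, 11, 10 and 9. Of the 56 members, 16 had exactly 3 such UMIs, 17 exceeded the collagen count by 1, and 5 had no collagen UMI. Just outside lay 14 spots with 2 macrophage UMIs and fewer collagen UMIs, 8 spots where both counts were equal at 3 or more, and 1 spot lost to the keratin limit. *Ctss*, a lysosomal protease of antigen-presenting cells, had 22, 22, 18 and 18 UMIs in members of the control, UVR, retinol and HPR sections. *Trem2* had 13, 9, 10 and 11, and *Atp6v0d2* had 23, 22, 19 and 8. *Col1a2*, the second chain of type I collagen, still had 17, 23, 20 and 22 UMIs there, so members also held matrix transcripts.

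**Figure D1:**
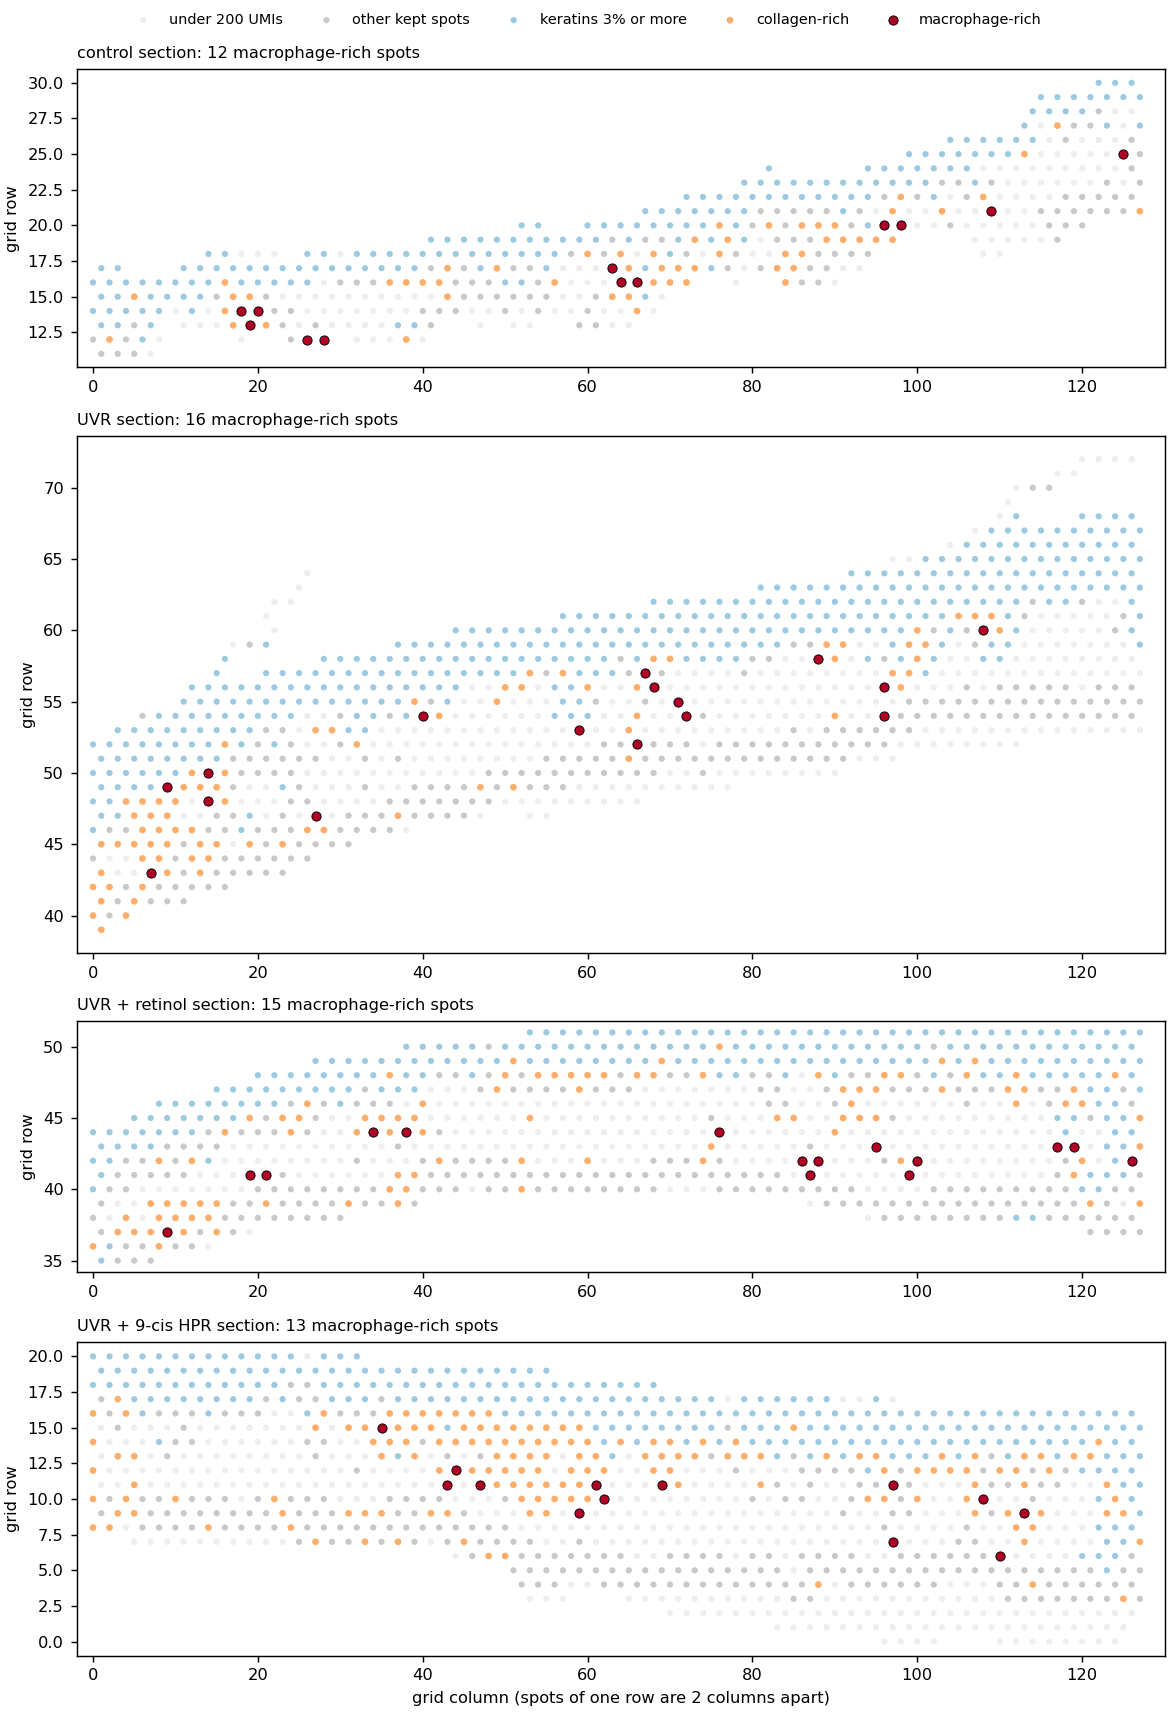
Grid positions of all 3175 spots over tissue in the 4 sections (column and row of the spot grid, at the same scale in each panel). Dark red points are the 56 macrophage-rich spots, orange the 378 collagen-rich spots, blue the spots with keratins at 3% or more, and greys the rest. Members lie below the keratin band in each section.

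The members were a small share of every section. They made up 3.54% of kept control spots (exact Clopper-Pearson 95% interval 1.84% to 6.10%), 2.47% in the UVR section (1.42% to 3.98%), 2.76% in the retinol section (1.55% to 4.51%) and 2.02% in the HPR section (1.08% to 3.43%). These 4 intervals overlapped. Kept spots include keratin-rich ones, which cannot be members. Of kept spots below the keratin limit, members were 7.19% (3.77% to 12.2%) in the control and 5.26% (3.04% to 8.41%) in the UVR section. They were 4.62% (2.61% to 7.50%) in the retinol and 3.32% (1.78% to 5.60%) in the HPR section, so here the UVR share was above the retinol share. With at least 5 macrophage UMIs the shares of all kept spots were 2.95% (1.42% to 5.36%), 0.773% (0.251% to 1.79%), 1.65% (0.759% to 3.12%) and 1.09% (0.438% to 2.23%) in that order. The control share was then furthest from the UVR share. Their intervals overlapped, which does not show that counting error covers the gap, and the difference was not tested. When every kept spot was thinned to 200 UMIs the shares were 2.06%, 0.618%, 1.65% and 0.621%. In the control section 10 of 12 members touched another member on the hexagonal grid, and in the retinol section 9 of 15 did. In the UVR and HPR sections 4 of 16 and 4 of 13 did. Collagen-rich spots touched a member in 25.5%, 34.2%, 17.0% and 17.3% of cases in the control, UVR, retinol and HPR sections. The median member lay 2, 2, 4 and 3 grid steps from the nearest keratin-rich spot, against 1, 2, 2 and 2 steps for collagen-rich spots.

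The macrophage label was checked against macrophage genes that the rule did not use, and part of them was present. Of 30 further macrophage genes 29 were in the matrices, and 17 of them had a UMI in members. Their summed level was 3396 CPM in control members, 3819 in UVR, 3614 in retinol and 5052 in HPR members, against 1029 to 1888 CPM in collagen-rich spots, and was higher in members in 4 of 4 sections. *Tyrobp*, the adaptor of TREM2, had 5, 5, 4 and 12 UMIs in the control, UVR, retinol and HPR members, and *C1qa*, a complement subunit made by macrophages, had 3, 12, 1 and 1. *Cd68*, a lysosomal membrane glycoprotein of macrophages, had 3, 1, 2 and 2 UMIs, and *Csf1r*, the receptor for the macrophage growth factor, 0, 1, 0 and 1. *Lyz2*, *Adgre1* and *C1qb*, which define macrophages in most tissues, had no UMI in any member. These 3 genes were close to absent from collagen-rich spots too, with 2, 1 and 3 UMIs.

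Of the other immune cells, B and plasma cells left the most transcripts. Their list had 56 UMIs over all members, at 0, 2695, 329 and 3789 CPM in the control, UVR, retinol and HPR members, against 1623, 2748, 580 and 2183 CPM in collagen-rich spots. It was higher in members in 1 of 4 sections. The T cell list had 1 UMI over all members, the mast cell list 2, the dendritic list 5, the endothelial list 6 and the neutrophil list 11. The neutrophil list, at 154 to 562 CPM in members and 78.0 to 120 CPM in collagen-rich spots, was higher in members in 4 of 4 sections. The fibroblast list, which leaves out the collagens of the rule, had 51. Its summed level was 657 to 3550 CPM in members, against 430 to 1416 CPM in collagen-rich spots, and was higher in members in 4 of 4 sections. Skeletal muscle markers ran from 1852 to 27403 CPM in members and from 21221 to 136623 CPM in collagen-rich spots. Genes of osteoclasts and giant cells were sparse, with 24 UMIs over 18 genes. *Acp5*, the tartrate-resistant phosphatase, had 2, 1, 0 and 2 of them in the control, UVR, retinol and HPR members. The part of fibroblast, plasma cell, neutrophil and muscle transcripts in the values that follow was not tested. In summed spots, fewer cells of a type and less RNA per cell cannot be told apart.

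Transcripts of lysosomes, iron storage and heme transport accompanied the macrophage genes. UMIs were summed per section and class, and members were compared with collagen-rich spots by edgeR's quasi-likelihood test over 4 sections, with section as a block and without the 14 genes of the rule. Since the spots were chosen on macrophage transcripts, this test shows which other transcripts go with them, not an effect of a condition. Of 538 genes tested, 55 were higher (10.2%) and 114 lower (21.2%) at a Benjamini-Hochberg adjusted p under 0.05. Of the 55, 50 were higher in 4 of 4 sections. Log2 fold changes are from this fit, where the median over all tested genes was -0.27.

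These calls depend on the deepest spots. Without the spots of more than 1000 UMIs, which are 4 of 56 members and 96 of 378 collagen-rich spots, 2 genes were higher and 2 lower, out of 330 tested. *Ctsd* and *Syngr1* were the 2 higher genes and were the only ones called in all 14 alternatives. Of the 55 higher genes 49 were tested there, and 49 kept their direction while 44 had smaller fold changes. That of *Fth1* went from 1.83 to 1.25 on the log2 scale (adjusted p = 0.061, edgeR). Of 72 lower genes tested there, 71 kept their direction and 66 had smaller fold changes. Of all 329 genes tested both ways, called genes included, 294 kept their direction and 240 had smaller fold changes. Both were common among all tested genes and more frequent among the called ones. With collagen-rich spots limited to at least 5 collagen UMIs, 10 genes were higher and 8 lower. Without the HPR section 23 genes were higher and 59 lower, without the retinol section 30 were higher, and without the UVR section 62 were lower. DESeq2 on the same sums called 35 genes higher, and all 35 were among the 55. The filter on low counts can keep a gene through the class where it is high. With genes kept by at least 30 UMIs over both classes, 39 of 1721 were higher (2.27%) and 148 lower (8.6%), and 37 of the higher genes were among the 55.

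*Fth1*, the heavy chain of the iron store ferritin, had the smallest adjusted p among the genes higher in members. It stood at 42760 CPM in control members, 41554 in UVR, 47635 in retinol and 58103 in HPR members. Collagen-rich spots of the same sections had 18025, 14143, 8791 and 7563 CPM. Every member section was above every collagen-rich section, and the log2 fold change was 1.83 (adjusted p = 3.07e-12, edgeR; SD of the section log2 ratios 0.78, n = 4 sections). *Slc48a1*, the heme transporter of the lysosome, was at 1698, 3482, 3778 and 5558 CPM in control, UVR, retinol and HPR members, against 967 to 1328 CPM in collagen-rich spots. Its log2 fold change was 1.44 (adjusted p = 1.96e-05, edgeR), and its control value, from 11 UMIs, lay closest to the collagen-rich level. *Cyba*, a subunit of the phagocyte oxidase, had a log2 fold change of 1.79 (adjusted p = 0.000269, edgeR), with section ratios that ranged from 0.39 to 3.58 on the log2 scale. Of the list of oxidase, iron and heme genes these 3 were tested and higher, against 10.2% of all genes, and with genes kept by UMIs over both classes they were 3 of 4 tested, against 2.27%.

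The lysosomal list had more called genes than any other list on the higher side. The rule chose spots on cathepsin genes (*Ctss*, *Ctsk* and *Ctsz*) and on the pump gene *Atp6v0d2*. Higher levels of other lysosomal and pump genes in members are therefore not independent of the rule, and their shares are a description. Of its 30 hydrolases, activators and membrane proteins 8 were tested and 7 were higher, 87.5% against 10.2% of all genes. The median log2 fold change of the 8 was 1.90. With genes kept by UMIs over both classes, 15 were tested and the same 7 were higher, 46.7% against 2.27%. The median of the 15 was 1.08. *Ctsd*, the aspartic protease of lysosomes, was at 2161, 3257, 3449 and 2147 CPM in control, UVR, retinol and HPR members. Collagen-rich spots had 679, 760, 318 and 390 CPM, so the ranges did not overlap, and the log2 fold change was 2.19 (adjusted p = 6.47e-10, edgeR; SD 0.75, n = 4 sections). *Ctsl*, a cysteine protease, was at 2470, 3032, 3778 and 3158 CPM against 533 to 1062 CPM, with a log2 fold change of 1.92. *Psap*, the precursor of the saposins that help degrade sphingolipids, was at 4168, 3706, 2464 and 4168 CPM against 507 to 2036 CPM, with a log2 fold change of 1.65. *Ctsb*, another cysteine protease, was at 4785, 2471, 3285 and 1137 CPM in the control, UVR, retinol and HPR members. Its collagen-rich levels were 1180, 1241, 412 and 343 CPM, so the HPR members lay below the control and UVR collagen-rich spots, while within each section members were higher.

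The other called lysosomal genes were *Grn* (progranulin), *Gusb* (beta-glucuronidase) and *Cd63* (a membrane tetraspanin), with log2 fold changes of 1.99, 2.86 and 1.22. *Gusb* rested on 4, 2, 6 and 3 UMIs in members. *Tpp1*, a tripeptide-releasing peptidase, did not pass, at a log2 fold change of 1.89 (adjusted p = 0.127, edgeR). Of the proton pump, 3 subunits were tested, and *Atp6v0c*, which forms the membrane ring, was higher with a log2 fold change of 2.39. This share was 33.3%, against 10.2% of all genes. With genes kept by UMIs over both classes it was the 1 called of 5, 20% against 2.27%. *Atp6v0d1*, the widely expressed counterpart of *Atp6v0d2*, had a log2 fold change of 1.05 (adjusted p = 0.0612, edgeR). The transcription factors of the MiT/TFE family, which regulate lysosomal genes, were at the floor: *Tfeb* had 2 UMIs over all members, and *Mitf*, *Tfe3* and *Tfec* had none.

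**Figure D2:**
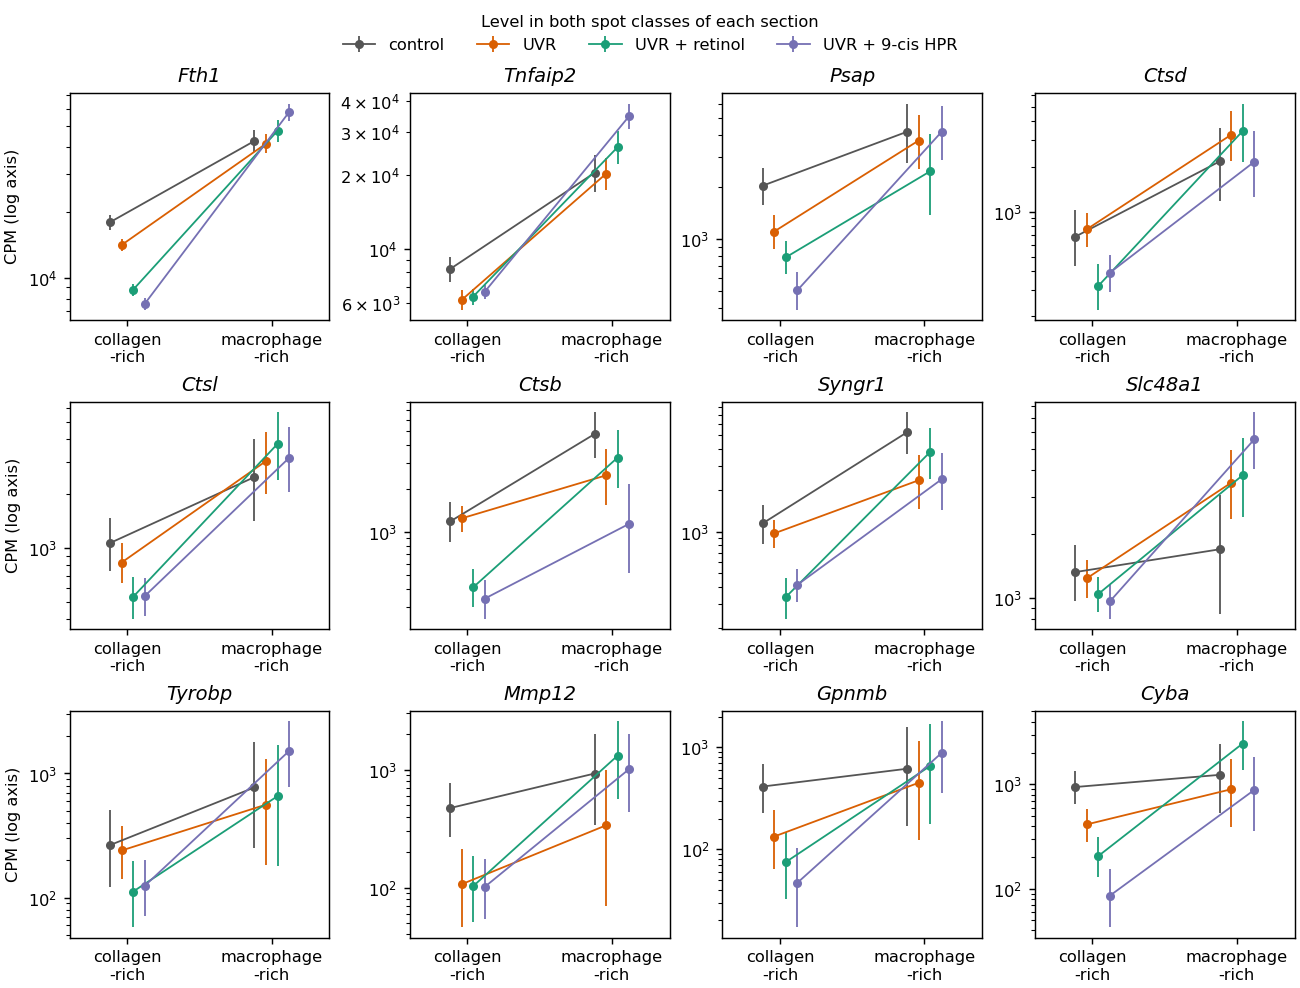
Level of 12 genes outside the rule in collagen-rich and macrophage-rich spots of each section (CPM on a log axis; points are summed UMIs of a class in a section, bars are 95% counting intervals, lines join the classes of a section). Every line rises, and *Fth1*, *Ctsd* and *Ctsl* separate the classes in all sections, while the control line is nearly flat for *Slc48a1* and *Cyba*.

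Promoters of called genes were searched for the core of the MiT/TFE site, CACGTG, and for the AP-1 site, TGAGTCA, each on both strands of the 250 bases before each annotated start (RefSeq, GRCm38.p6). CACGTG was found in 2 of 50 called higher genes with a promoter sequence (4%), *Ctsd* and *Ctsl*. It was in 6.86% of 27025 genes and in 9.05% of the 431 tested genes with such a sequence. TGAGTCA was found in 5 of 50 (10%), among them *Psap* and *Mmp12*, against 5.16% of all genes and 4.41% of those tested. None of the 5 macrophage genes of the rule with a promoter sequence held either. The matches in the lysosomal genes are given here in the direction of transcription, with the match in capitals. The *Ctsd* stretch is chr7:142388027-142388077, minus strand, the *Ctsl* stretch chr13:64370739-64370768, minus strand, and the *Psap* stretch chr10:60277570-60277627, plus strand.
Ctsd: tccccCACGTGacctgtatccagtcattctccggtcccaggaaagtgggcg
Ctsl: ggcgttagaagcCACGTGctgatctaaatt
Psap: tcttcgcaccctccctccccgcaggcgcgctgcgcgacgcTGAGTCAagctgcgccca
The *Psap* match ends 12 bases before the start, and the *Ctsd* and *Ctsl* matches end 240 and 231 bases before it. The upstream window of *Ctsd* held 2 matches in all, of which the farther is shown. The *Ctsl* stretch lies inside the gene's annotated span.

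Several of the clearest calls lay outside the lysosomal and iron lists. *Tnfaip2*, an inflammation-induced gene, was at 20377, 20216, 25953 and 34735 CPM in control, UVR, retinol and HPR members, against 6177 to 8260 CPM in collagen-rich spots. The member and collagen-rich ranges did not overlap, and the log2 fold change was 1.65 (adjusted p = 1.67e-10, edgeR; SD 0.46, n = 4 sections). *Syngr1*, a vesicle membrane protein, was at 5249, 2358, 3778 and 2400 CPM against 337 to 1151 CPM, with a log2 fold change of 2.12. *Crlf2*, the receptor chain for the epithelial cytokine TSLP, was at 6020, 2134, 2135 and 2653 CPM against 673 to 1328 CPM, with a log2 fold change of 1.61. *Tyrobp* had a log2 fold change of 2.08 (adjusted p = 0.00159, edgeR), and *Laptm5*, the other tested gene of the macrophage list, 1.87 (adjusted p = 0.0959, edgeR). The share called was 1 of 2, 50% against 10.2% of all genes. With genes kept by UMIs over both classes *Tyrobp* was the 1 called of 6, 16.7% against 2.27%. *Cd84*, a leukocyte adhesion receptor, had a log2 fold change of 1.95, and *Capg*, an actin-capping protein of macrophages, had 2.77.

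Genes for lipid handling gave different results from one another. Of 6 tested, *Gpnmb*, a glycoprotein of lipid-laden macrophages, and *Lgals3*, the lectin galectin-3, were higher, with log2 fold changes of 2.12 and 1.38, a share of 33.3% against 10.2% of all genes. With genes kept by UMIs over both classes *Gpnmb* was the 1 called of 14, 7.14% against 2.27%, and *Lgals3* did not pass. *Apoe*, the main lipid carrier of macrophages, was at 5557, 5391, 4763 and 4800 CPM in control, UVR, retinol and HPR members and at 6697, 4043, 4311 and 3836 CPM in collagen-rich spots. These ranges overlapped and its log2 fold change was -0.06 (adjusted p = 0.873, edgeR). *Fabp5*, a fatty acid carrier, had -0.06 as well (adjusted p = 0.894, edgeR), *Cd36*, a scavenger receptor, 1.07 (adjusted p = 0.238, edgeR) and *Abca1*, a cholesterol exporter, 0.31. *Spp1*, osteopontin, had 3 UMIs over all members.

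Few genes of secreted and surface proteins reached the test. *Mmp12*, the macrophage elastase, was at 926, 337, 1314 and 1010 CPM in control, UVR, retinol and HPR members, from 3 to 8 UMIs each, and its log2 fold change was 2.25 (adjusted p = 0.000869, edgeR). Of 4 tested chemokine and cytokine genes, *Pf4* and *Ccl6* were higher, at 1.57 and 1.75. Of 4 antigen-presentation genes *B2m*, the light chain of MHC class I, was higher at 2.16. These shares, 50% and 25%, stand against 10.2% of all genes. With genes kept by UMIs over both classes *Pf4* was the 1 called of 5 and *B2m* the 1 of 8, 20% and 12.5% against 2.27%, and *Ccl6* did not pass. *Cd74*, the invariant chain of MHC class II, did not pass at 0.75 (adjusted p = 0.0962, edgeR). *C3*, the central complement protein, had 1.58 (adjusted p = 0.125, edgeR). *Arg1*, *Chil3* and *Retnla*, used as marks of alternative activation, and *Nos2* had no UMI in members.

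Muscle and some epithelial genes were lower in members. The 9 tested skeletal muscle markers were lower, with a median log2 fold change of -3.05, against 21.2% of all genes that were lower, and with genes kept by UMIs over both classes 8 of 10 were, against 8.6%. *Ckm*, muscle creatine kinase, was at 772, 8423, 2464 and 1389 CPM in control, UVR, retinol and HPR members and at 14603, 53715, 8810 and 10355 CPM in collagen-rich spots. *Crabp2*, the carrier of retinoic acid to its nuclear receptors, had 1, 0, 0 and 0 UMIs in members, against 28, 25, 102 and 78 in collagen-rich spots, with a log2 fold change of -4.33 (adjusted p = 4.9e-05, edgeR). *Hr*, the corepressor gene named for hairless mice, had 0, 0, 1 and 0 UMIs in members against 16, 13, 75 and 74, and *Aqp3*, a glycerol channel of keratinocytes, 1, 0, 1 and 0 against 7, 12, 167 and 131. Among spots of both classes with muscle markers below 3% of UMIs, 47 genes were higher, 46 of them among the 55, and 66 lower. There *Fth1* had a log2 fold change of 1.82 and *Ctsd* 2.04. Muscle markers were lower in members than in collagen-rich spots in 4 of 4 sections.

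**Figure D3:**
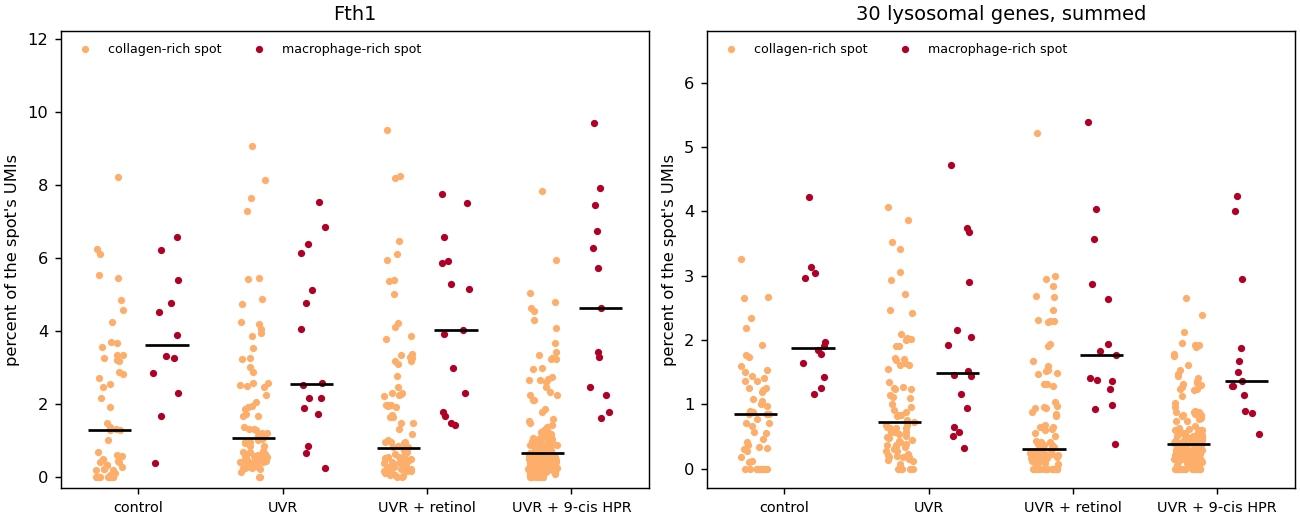
Share of each spot's UMIs from *Fth1* and from 30 lysosomal genes outside the rule, in percent, for collagen-rich (orange) and macrophage-rich (red) spots of each section; each point is a spot and the black line the median. Median *Fth1* shares of members are 2.55% to 4.62% and those of collagen-rich spots 0.654% to 1.28%, with wide overlap of single spots.

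Single spots of both classes overlapped widely, although their medians did not. *Fth1* took a median of 3.61% of a member's UMIs in the control section, 2.55% in the UVR section, 4.03% in the retinol section and 4.62% in the HPR section. The lowest members had 0.385%, 0.253%, 1.43% and 1.61%, and the highest 6.58%, 7.54%, 7.75% and 9.69%. Collagen-rich spots had medians of 1.28%, 1.06%, 0.800% and 0.654%, and maxima of 7.82% to 9.50%. *Fth1* had a UMI in every member. The 30 lysosomal genes together took a median of 1.87%, 1.49%, 1.77% and 1.36% of a member's UMIs, against 0.851%, 0.726%, 0.307% and 0.387% in collagen-rich spots.

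The level of these genes grew with the number of macrophage UMIs across all 1188 kept spots below the keratin limit, collagen-rich or not. For the lysosomal list this is not independent of the rule, whose macrophage genes include cathepsins and a pump subunit. *Fth1* was at 4660 CPM in the 853 spots with none of the 6 macrophage genes, 8247 CPM in the 162 spots with 1 UMI, 17425 CPM in 64 spots with 2, 34407 CPM in 61 spots with 3 to 4, and 50430 CPM in 48 spots with 5 or more. *Tnfaip2* went from 2582 CPM to 5623, 9589, 20830 and 26075 CPM over the same bins, and the lysosomal list from 2288 CPM to 3690, 7766, 12948 and 17994 CPM. Within sections the order held with an exception for *Fth1* in the control section, where spots with 1 UMI had 9616 CPM and the 8 spots with 2 had 9329 CPM, and another for *Tnfaip2* in its 6 spots with 3 to 4 (19446 CPM) and 18 with 5 or more (19368 CPM). Bins of under 20 spots occur in each section. Depth did not run in 1 direction over these bins. The median spot had 598, 388, 386.5, 402 and 695.5 UMIs from the first bin to the last. Spots with 5 or more such UMIs were deeper than spots with none in the control section (641 against 375.5) and the HPR section (699 against 523.5), and shallower in the UVR section (855 against 1310) and the retinol section (422 against 633.5).

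**Figure D4:**
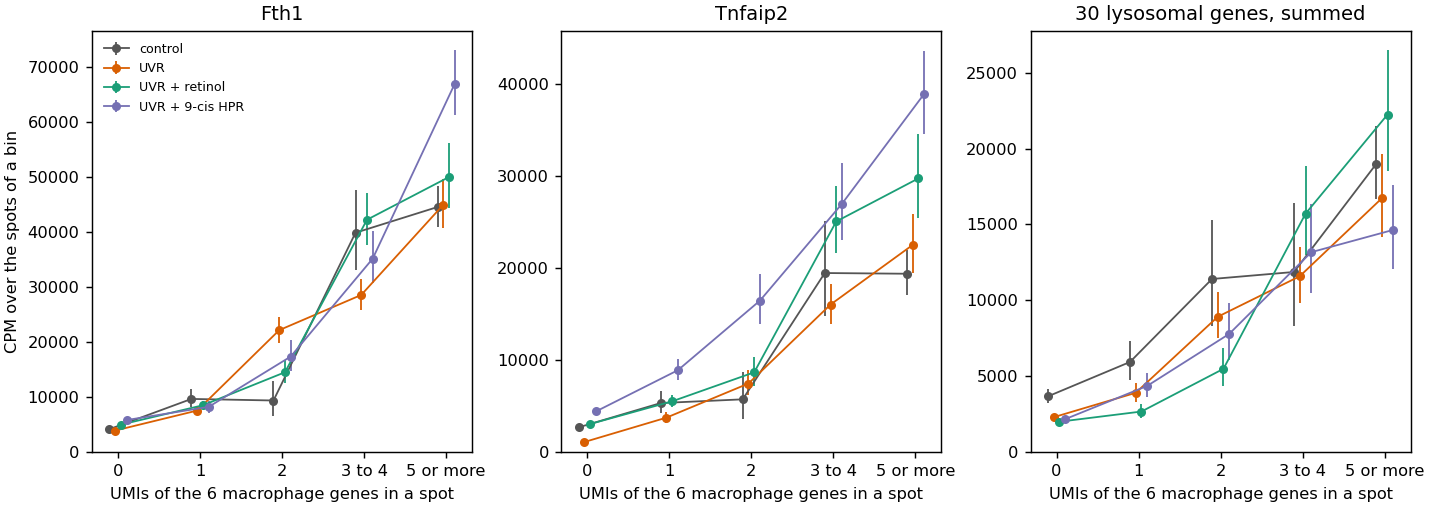
Level of *Fth1*, *Tnfaip2* and 30 summed lysosomal genes outside the rule (CPM) over kept spots with fewer keratin UMIs than the limit, grouped by the UMIs of the 6 macrophage genes in a spot, for each section; bars are 95% counting intervals. Levels are highest in spots with 3 or more such UMIs in every section.

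The comparison of UVR with control members addressed how irradiated skin differs from normal skin. UVR members carried more *Igha* transcripts than control members, and fewer of *Cd74*, *Crlf2* and *Syngr1*, while more muscle transcripts came mostly from 2 spots. In collagen-rich spots *Igha*, *Cd74* and *Crlf2* went the same way, with intervals that left out 1. Of 118 genes that reached 20 UMIs over both sections, 14 were higher by the size rule of 2-fold (11.9%) and 15 were lower by that much (12.7%), and these counts include genes of the rule. *Cd74* had 4 UMIs in UVR members and 17 in control members, 5.84-fold lower (95% interval 1.91 to 23.9). In collagen-rich spots *Cd74* was lower too, 3.06-fold (1.92 to 4.90). The antigen-presentation list, with 3 measured genes, had a pooled ratio of 0.430 (0.254 to 0.714), and in collagen-rich spots, with 7 measured, 0.599 (0.489 to 0.734). *Crlf2* was 2.82-fold lower (1.59 to 5.17), with 19 against 39 UMIs, and *Syngr1* 2.23-fold lower (1.26 to 4.03), with 21 against 34. In collagen-rich spots *Crlf2* was 1.78-fold lower (1.17 to 2.68) and *Syngr1* 1.18-fold lower (0.780 to 1.77). *Slc48a1* was 2.05-fold higher (1.00 to 4.52) in members, with 31 against 11, and had a ratio of 0.935 (0.648 to 1.37) in collagen-rich spots.

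Muscle transcripts set the largest ratios of this comparison. *Ckm* had 75 UMIs in UVR members and 5 in control members, a ratio of 10.9 (4.47 to 34.6), and *Myh4*, a fast myosin heavy chain, had 75 and 3. Of the 75 *Myh4* UMIs 66 lay in 2 spots, and of the 75 *Ckm* UMIs 63 did. All 7 measured muscle markers were at least 2-fold higher. Without these 2 spots, which were picked for their muscle UMIs, the ratio of *Ckm* was 1.97 (0.646 to 7.14) and that of *Myh4* 2.46 (0.615 to 14.2). *Igha*, the constant region of immunoglobulin A made by plasma cells, had 24 UMIs in UVR members and none in control members, with an exact 95% lower limit of 4.38 for the ratio and a ratio of 5.82 to the level of 3 counts in the control members. These UMIs came from 9 of 16 members, and no more than 6 from any of them. *Igha* was higher in collagen-rich spots too, at a ratio of 1.53 (1.12 to 2.14). *Fth1* was at 42760 CPM in control and 41554 CPM in UVR members, and the lysosomal list had a pooled ratio of 0.801 (0.613 to 1.05), both within counting error.

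Retinol-treated members carried more antigen-presentation transcripts than UVR members. Of 109 genes, 7 were higher by that rule (6.42%) and 15 lower (13.8%). *Pdia3*, a disulfide isomerase of the endoplasmic reticulum that also serves MHC class I assembly, had 209 UMIs against 118, 2.59-fold higher (2.06 to 3.28). *Tapbp*, tapasin of the same assembly complex, was 2.24-fold higher (1.12 to 4.62), and the antigen-presentation list of 4 measured genes had a pooled ratio of 2.22 (1.38 to 3.61), against 1.26 (1.07 to 1.49) for 9 measured genes in collagen-rich spots. *Cyba* was 2.74-fold higher (1.09 to 7.47), with 15 against 8 UMIs. *Igha* had 1 UMI against 24, a ratio of 0.061 (0.0015 to 0.374). In collagen-rich spots *Igha* was lower too, at a ratio of 0.227 (0.165 to 0.308). *Cyba* went the other way there, at 0.497 (0.274 to 0.887). *Ckm* was 3.42-fold lower (1.95 to 6.41), and all 7 measured muscle markers were at least 2-fold lower. This rests on the same 2 UVR spots: without them *Ckm* had a ratio of 1.62 (0.708 to 3.79), in the other direction, and *Cyba* 2.43 (0.967 to 6.62). These sections lie on different capture areas, so treatment and area cannot be told apart; *Pdia3* was also higher in collagen-rich spots, at 22605 CPM against 8419.

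HPR-treated members carried more *Pdia3* and *Pex6* than UVR members, as did collagen-rich spots. Of 119 genes, 8 were higher by the 2-fold rule (6.72%) and 16 lower (13.4%). *Pdia3* had 261 UMIs against 118, 2.49-fold higher (1.99 to 3.12). *Pex6*, a peroxisome assembly factor, was 3.15-fold higher (1.49 to 7.27), with 28 against 10 UMIs. In collagen-rich spots the ratios were 2.69 (2.47 to 2.94) for *Pdia3* and 2.01 (1.61 to 2.54) for *Pex6*. *Pex6* was not particular to HPR: retinol over UVR was 2.39 (1.91 to 3.02) in collagen-rich spots. In members without the 2 muscle-bearing UVR spots it was 2.59 (1.11 to 6.55). Both genes were lower in UVR than in control skin. For UVR over control, collagen-rich spots had 0.587 (0.521 to 0.662) for *Pdia3* and 0.643 (0.470 to 0.884) for *Pex6*. Members without those 2 spots had 0.688 (0.532 to 0.890) and 0.411 (0.163 to 0.963). *Cst3*, the cathepsin inhibitor cystatin C, was 2.05-fold lower (1.04 to 4.29) in members, with 13 against 30 UMIs. In collagen-rich spots *Cst3* went the other way, at a ratio of 1.37 with an interval that left out 1. *Ckm* was 6.06-fold lower (3.20 to 12.7) in members. Without the 2 muscle-bearing UVR spots *Ckm* had a ratio of 0.913 (0.365 to 2.26). The antigen-presentation list of 5 measured genes had a pooled ratio of 1.57 (1.01 to 2.45), and 1.43 (0.920 to 2.23) without those spots. The 3 measured oxidase, iron and heme genes had a pooled ratio of 1.41 (1.23 to 1.60), in which *Fth1* gave 460 of 511 UMIs, and 1.27 (1.11 to 1.45) without those spots. For retinol over UVR the same list had 1.17 (1.01 to 1.36), and 1.06 (0.911 to 1.23) without them. In collagen-rich spots this list, with 4 measured genes, went the other way in both comparisons. Its pooled ratio there was 0.541 (0.499 to 0.588) for HPR over UVR and 0.636 (0.585 to 0.691) for retinol over UVR. The lysosomal list had a pooled ratio of 0.911 (0.687 to 1.21). Both treated comparisons share the UVR members, so they are not independent.

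The treated sections lay on the same capture area, and their members were compared directly. Of 101 genes, 10 were higher in HPR members by 2-fold or more (9.9%) and 6 lower (5.94%). *Ctsb* had 9 UMIs in HPR and 20 in retinol members, 2.89-fold lower (1.26 to 7.21), and *Cyba* had 7 and 15, 2.79-fold lower (1.07 to 8.08). *Hnrnpa0*, an RNA-binding protein, was 2.94-fold higher (1.49 to 6.32), *Laptm4a*, a lysosomal membrane protein, 2.05-fold higher (1.11 to 4.0) and *Actb* 2.22-fold higher (1.01 to 5.39). *Igha* had 28 UMIs against 1, a ratio of 21.5 (3.56 to 880), and 15 of the 28 lay in 1 spot. In collagen-rich spots *Igha* and *Cyba* went the same way, at ratios of 3.83 (2.86 to 5.20) and 0.417 (0.183 to 0.897). The intervals of *Ctsb*, *Hnrnpa0*, *Laptm4a* and *Actb* held 1 there. The lysosomal list had a pooled ratio of 0.793 (0.593 to 1.06), and the antigen-presentation list 0.818 (0.538 to 1.25), both within counting error.

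**Figure D5:**
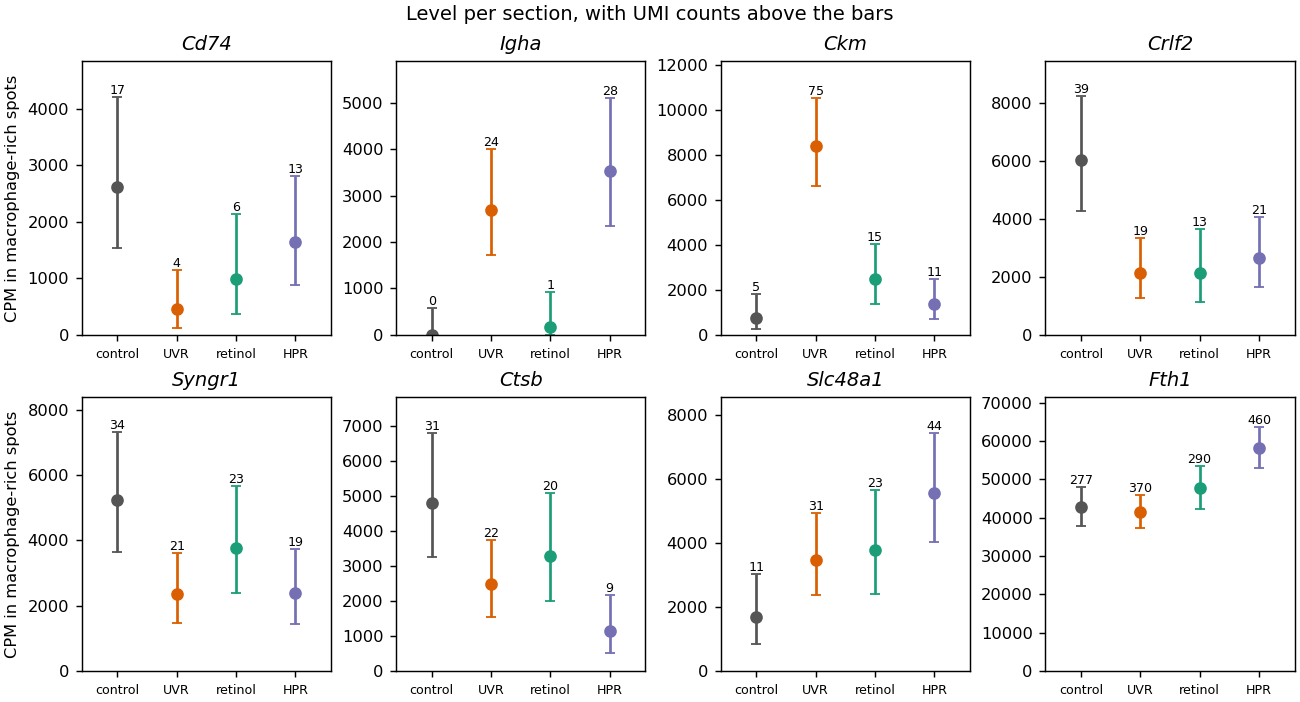
Level of 8 genes in macrophage-rich spots of the 4 sections (CPM from summed UMIs, linear axes from 0; bars are exact 95% counting intervals and the number above each is its UMIs). *Cd74* is lowest in the UVR section, *Ckm* highest there, *Igha* higher in the UVR and HPR sections than in the others, and *Fth1* is highest in the HPR section.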

How the data were processed

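Per the labels' protocols, fresh-frozen sections were hybridised with gene probes on Visium slides and the ligated probes were sequenced. The authors deposited raw UMI counts per gene and spot. The submitters' processing notes list Space Ranger 2.0.0, Seurat 4.1.0 and the mm10 build, and no normalized values were used. Each gene is measured only through its probes. The deposited tables list 19465 genes, and spot positions gave the sections, split at the gap between tissue pieces. The members and gene lists were chosen with earlier results of these data known.

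UMIs were summed per section and class. Ratios of CPM between sections had no pseudocount and needed 20 UMIs over both (10 for list members), with exact binomial 95% intervals and 2-fold as size rule. Named genes were the genes of the rule, the 3 members of each list with most UMIs in members, list members with at least 20 UMIs, 2-fold apart and an interval without 1, up to 6 genes at each end of a comparison by the same limits at 30 UMIs, and the 12 highest and 8 lowest called genes against collagen-rich spots with the same direction in 4 sections. The other named genes, such as *Tnfaip2*, *Cd84* and list members that did not pass, were chosen after their values were seen. Classes were tested with edgeR 4.0.16 (filterByExpr, TMM, quasi-likelihood, section block). The fit shared 1 spread over all genes, which makes its p-values small. The 8 sums come from 4 sections that may not be separate animals. With section as a block, p-values set the class difference within sections against that shared spread. They do not measure a gene's own spread over sections, or the spread between animals. DESeq2 1.42.0 was an alternative; others changed the filters, scaling, depth, classes, image side and the reading of upper. On simulated counts for 556 genes edgeR recovered 89.4% of 4-fold and 56.7% of 2.5-fold changes and called 4 unchanged genes. Those counts had 1 spread for all genes, as the fit assumes, and the same class difference in every section. They cannot show how many false calls a class difference that varies between sections would give. The ratio rule recovered 94% of 4-fold changes for UVR over control (116 genes). By size alone it also passed 4 of 20 unchanged genes there. It passed 0 of 6 for retinol over UVR, 4 of 21 for HPR over UVR and 3 of 16 for HPR over retinol. The counts of genes 2-fold apart can therefore hold unchanged genes. Gene names matched RefSeq GRCm38.p6 for 19095 of 19454 symbols. Scripts ran on R 4.3.3 and Python 3.11.15.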

Additional observations from a re-analysis of the deposited data

Results flagged for a closer look

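*Igha* went opposite ways between the classes in different sections. In the HPR section members had 28 UMIs and collagen-rich spots 257, a CPM ratio of 1.76 (95% counting interval 1.15 to 2.61). In the control section members had 0 UMIs and collagen-rich spots 51, a ratio of 0 (upper bound 0.392). The difference between sections was not tested, each section being 1 sample, and 15 of the 28 HPR UMIs lay in 1 spot.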

How the results depend on the processing

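With 1 section per group, no variation between animals could be measured, and the members' total of 29387 UMIs limits every ratio. No paired analysis between groups was possible because the labels give no replicate numbers and each group is 1 section. The class comparison was paired within sections through the section block. Of the alternatives for the class comparison, muscle markers below 3%, no spots above 1000 UMIs and genes by summed UMIs of at least 30 were chosen after seeing the data. Genes higher and lower in members numbered 55 and 114, and became 35 and 65 by DESeq2, 6 and 277 with no filter beyond 1 UMI (10443 genes, median log2 fold change -1.36), 29 and 23 with no section block, 10 and 8 with at least 5 collagen UMIs, and 2 and 2 without spots of more than 1000 UMIs. Leaving out each section gave 23 to 48 higher and 59 to 106 lower, and with muscle markers below 3% 66 were lower. Among genes that did not pass, *Cd74*, *Tapbp* and *H2-D1* turned to -0.093, -0.31 and -0.0074 (log2) with no filter; *Apoe* to 0.050 with no section block, from -0.14 to 0.031 over the sets that leave out a section, and 0.39 against collagen-rich spots with no macrophage UMI; *Igha* from -1.15 without the HPR section to 0.045 without the control section; and *Fabp5* to 0.12 with no section block, from -0.16 to 0.17 over the sets that leave out a section, 0.13 against collagen-rich spots with no macrophage UMI, 0.37 with at least 5 collagen UMIs and 0.0039 without spots of more than 1000 UMIs. The cause of these changes was not tested, apart from the genes that a filter adds or removes.

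Shares of members moved with the rule. With more than 2 times as many macrophage as collagen UMIs they were 1.77%, 1.24%, 1.1% and 0.621% in the control, UVR, retinol and HPR sections. The UVR share was 0.773% with at least 5 macrophage UMIs, where the control share was 2.95%, 1.41% over spots of at least 500 UMIs and 0.618% after thinning. The retinol share was 0.800% over spots of at least 500 UMIs, and the HPR share 0.621% after thinning. With at least 5 macrophage UMIs 0% of members touched another in the UVR and HPR sections. With keratin-rich set at 10% of UMIs the median distance to such a spot was 6, 9 and 7 steps in the UVR, retinol and HPR sections.

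Genes at least 2-fold apart numbered 29 for UVR over control, 22 for retinol over UVR, 24 for HPR over UVR and 16 for HPR over retinol. In that order, at least 50 UMIs left 5, 5, 3 and 2, a pseudocount of 10 CPM with no minimum gave 2670, 2656, 2629 and 2373, and the left image side gave 12, 13, 12 and 7. The right side gave 9 for UVR over control, 11 for retinol over UVR and 9 for HPR over retinol. At least 5 macrophage UMIs gave 18 for UVR over control, 10 for retinol over UVR and 10 for HPR over UVR, and equal depth 18 for UVR over control and 14 for HPR over UVR. Without the 2 UVR spots with most muscle UMIs, an alternative chosen after seeing the data, 20, 15 and 17 genes were apart in the 3 comparisons with UVR. Reading upper by the grid gave 14 for HPR over UVR. That reading also turned list medians (log2): lysosomal from -0.56 to 0.56 for UVR over control, 0.36 to -0.34 for retinol over UVR and -0.58 to 0.58 for HPR over retinol; antigen presentation from -0.80 to 0.80 for UVR over control and 1.15 to -0.13 for retinol over UVR; muscle from 2.0 to -2.0 for UVR over control; and oxidase, iron and heme from 0.29 to -0.29 for HPR over retinol. The lysosomal median for UVR over control was 0.063 with the higher minimum and -0.11 at equal depth, and for HPR over UVR -0.95 on the right side, against 0.058. The oxidase, iron and heme median was -0.12 with at least 5 macrophage UMIs for retinol over UVR and -0.39 on the left side for HPR over retinol.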
